A study of Mus musculus with 22 samples.

Results

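The neurotrophins and their receptors were followed in the mouse brain through 6 genes, namely the ligand genes Bdnf and Ntf3, the Trk receptor genes Ntrk2 and Ntrk3, the gene of the pan-neurotrophin receptor, Ngfr, and the sortilin gene, Sort1. The genes were taken by name, and all 6 had a matched transcript among the 23033 genes of the count table. RNA came from the hippocampus, the cortex and the cerebellum of 8 mice and was measured in 22 libraries by 3′ RNA-seq (CelSeq2), which counts reads near the poly(A) end of each transcript. The circTulp4-deficient (CD) mice carry a CRISPR-Cas9 mutation of AG to TC in the splice acceptor used for backsplicing in Tulp4. This germline mutation reduces the circular RNA circTulp4 in the brain and other organs. The line is kept on a C57BL/6 background, and still makes some circTulp4 from a neighboring acceptor. The control mice were wild type (WT), and neither group received a treatment. The age and sex of the mice used for RNA-seq are not given in the sources used here. The hippocampus gave 3 WT and 4 CD libraries, the cortex 4 WT and 4 CD libraries, and the cerebellum 4 WT and 3 CD libraries, and the 3 regions came from the same mice. Each group holds 1 library more than the design text of the series gives.

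Neurotrophins are small secreted growth factors that are made as precursors and cleaved to the mature form. Mature BDNF acts through TrkB, the product of Ntrk2, and NT-3, the product of Ntf3, acts mainly through TrkC, the product of Ntrk3. The receptor encoded by Ngfr binds all mature neurotrophins with low affinity and, together with sortilin, binds the precursors. In the adult forebrain, BDNF is made largely by excitatory neurons in an activity-dependent manner and is known for its part in synaptic strengthening, whereas truncated TrkB, which lacks the kinase domain, is abundant in astrocytes.

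TrkB and TrkC are both made as full-length receptors with an intracellular tyrosine kinase and as truncated receptors without it. The truncated mRNAs end in an earlier 3′ exon, so that 3′ counting can separate the annotated forms. Reads of a predicted Ntrk2 transcript could not be placed with either form. The 4 reference sequences across the point where the forms part are shown because the shares of the forms are compared between regions. They were read from GENCODE transcripts of GRCm38 (mm10), 5′ to 3′ on the mRNA strand. The 12 lower-case bases end the last coding exon that both forms share, and the 18 capitals are the first coding bases that only this form has.

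Ntrk2, truncated: ttggcatgaaagGTTTTGTTTTGTTTCATA
Ntrk2, full-length: ttggcatgaaagGCCCAGCTTCGGTCATCA
Ntrk3, truncated: agccagacacatGGGTCTTTTCAAACATAG
Ntrk3, full-length: agccagacacatATGTTCAGCACATCAAGA

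Ntrk2 lies on the plus strand at chr13:58806569-59133970, and its last shared exon ends at 58878262. Truncated Ntrk2 continues at chr13:58932023-58933120, a 3′ terminal exon that adds 35 coding bases to the 1393 shared ones and ends a protein of 476 residues. Full-length Ntrk2 skips this exon and continues at chr13:58985802-58985990, the 13th of its 18 exons, toward a protein of 821 residues. Ntrk3 lies on the minus strand at chr7:78175959-78738012, with the last shared exon ending at 78356027. Truncated Ntrk3 continues at chr7:78304292-78304426 toward a protein of 612 residues, and the full-length form at chr7:78260284-78260414 toward a protein of 825 residues, with 1585 coding bases shared. Bdnf lies at chr2:109674700-109727007, Ntf3 at chr6:126101412-126166910, Ngfr at chr11:95568818-95587735 and Sort1 at chr3:108284082-108361511.

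The transcripts of a gene could be told apart only in part. All 12 Bdnf transcripts share the 3′ exon at chr2:109723382-109727007, with only 2 distinct sets of counts, and the promoters that start the different Bdnf mRNAs could therefore not be compared. Ntf3 had 5 transcripts with 2 distinct sets of counts, Sort1 4 with 2, and Ngfr a single transcript. Ntrk2 had 7 transcripts with 4 distinct sets of counts, and Ntrk3 had 13 with 12. Levels are given in cpm, the counts scaled to a common library total with TMM factors, of the transcript with the most counts, and are compared between samples and not between genes.

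The libraries held 2757684 to 8847481 counts over 1 transcript per gene, and WT cortex of mouse m244 held the fewest. The summed cpm of the 6 markers of each region separated the regions as labelled. The hippocampal markers gave 1160 to 1580 cpm in hippocampus and at most 282 cpm elsewhere, the cortical ones 868 to 1030 cpm in cortex and at most 385 cpm elsewhere, and the cerebellar ones 5930 to 6620 cpm in cerebellum and at most 73.7 cpm elsewhere. The 5 choroid plexus markers varied in the hippocampus between 132 and 8270 cpm, within both genotypes. The genotype labels were checked through the counts of the canonical Tulp4 transcript in excess of those of a noncanonical one. By the paper, the noncanonical transcript contains the complete circTulp4 sequence. How this excess relates to the circle was not tested. This excess was 3.98 cpm (16 counts) in the hippocampus library labelled CD of mouse m118, 0.42 to 0.57 cpm in the other 3 CD hippocampus libraries and 2.71 to 3.69 cpm in the WT ones, so the library labelled CD of mouse m118 goes with the WT libraries. The other libraries of this mouse went with their CD label, but on few counts. The excess was 0.9 cpm (5 counts) in the cortex (other CD 0.14 to 1.3, WT 1.45 to 6.03 cpm). The lowest WT cortex library, that of mouse m244, had 4 counts. In the cerebellum of mouse m118 it was 1.55 cpm (7 counts, other CD 0.6 and 2.62, WT 3.12 to 13.7 cpm). Hippocampal genotype results are therefore given with and without the hippocampus library of mouse m118.

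Regions were compared over all 22 libraries with the quasi-likelihood test of edgeR, averaging the genotypes, and a gene was called at a Benjamini-Hochberg adjusted p (FDR) below 0.01 together with a fold beyond 2 in either direction. Between hippocampus and cortex 2 of the 6 genes, Ntf3 and Ngfr, were called, against 8.42% of the 11133 genes tested. Between hippocampus and cerebellum 3 were called, against 22.8%, and between cortex and cerebellum 5 were called, against 22.6%. With the FDR alone, at any fold, the numbers were 3, 4 and 6 of the 6 genes, against 25.9%, 50.7% and 51.7% of all genes tested. The libraries of the regions did not overlap for 2 of the 6 genes between hippocampus and cortex (14.0% of all genes), for 4 between hippocampus and cerebellum (35.9%) and for 3 between cortex and cerebellum (32.9%). All 6 genes passed the filter of 5 cpm in 2 libraries over the whole set, but Ntf3 passed it through the hippocampus and 2 cerebellar libraries only, and Ngfr through hippocampus and cerebellum. Both calls between hippocampus and cortex are thus of genes that did not pass the filter in cortex. The 6 genes were also chosen with earlier results of these data known, so these counts are a description. In tissue RNA, fewer cells of a type and less RNA per cell cannot be told apart.

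Bdnf, the most studied neurotrophin of the adult brain, was lower in the cerebellum than in both forebrain regions. Its lowest, median and highest levels were 38.9, 46.4 and 63.7 cpm in the 7 hippocampus libraries, 23.4, 46.4 and 65.9 cpm in the 8 cortex libraries, and 15.9, 18.3 and 24.4 cpm in the 7 cerebellum libraries. The cerebellum lay below the hippocampus without overlap, and only the lowest cortex library, WT of mouse m240, reached into the cerebellar range. The means were 48.7 ± 8.58 (SD, n = 7), 46.5 ± 13.9 (n = 8) and 19.4 ± 3.26 cpm (n = 7). In the cerebellum, the level was 0.397 times that of the hippocampus (log2 fold change -1.33, SE 0.18, edgeR FDR = 3.96e-07) and 0.414 times that of the cortex (-1.27, SE 0.17, edgeR FDR = 5.78e-07). All 6 mice with both regions were lower in cerebellum than in hippocampus, and all 7 lower in cerebellum than in cortex. The order of hippocampus and cortex was not resolved (-0.06, 95% interval -0.39 to 0.27, edgeR FDR = 0.813).

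Ntf3, which encodes NT-3, was the most regional of the 6 genes between hippocampus and cortex and was low throughout. In the hippocampus its lowest, median and highest levels were 7.3, 8.34 and 10.3 cpm (29 to 72 counts), in the cerebellum 1.18, 2.08 and 5.36 cpm (7 to 33 counts), and in the cortex 0.396, 0.997 and 2.79 cpm (1 to 16 counts). All hippocampus libraries lay above all others, whereas cortex and cerebellum overlapped. The cortex had 0.147 times the hippocampal level (log2 fold change -2.77, SE 0.30, edgeR FDR = 5.9e-08), lower in 7 of 7 mice. The cerebellum had 0.324 times the hippocampal level (-1.62, SE 0.28, edgeR FDR = 1.76e-05), lower in 6 of 6 mice. The cerebellum was 2.21 times the cortex (1.14, SE 0.34, edgeR FDR = 0.00566), but only 5 of 7 mice showed this direction. This last call was lost with the mouse as a block (1.08, edgeR FDR = 0.0161) and when mouse m118, m162 or m240 was left out (log2 fold changes from 0.78 to 1.10).

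Ntf5, the gene of the related ligand NT-4, was at or near the detection limit, with 0 to 6 counts in a library and no count in any of the 7 cerebellum libraries, where 3 counts, the limit that a count of 0 allows, correspond to between 0.373 and 0.612 cpm in a library. It did not pass the filter and was not tested.

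**Figure D1:**
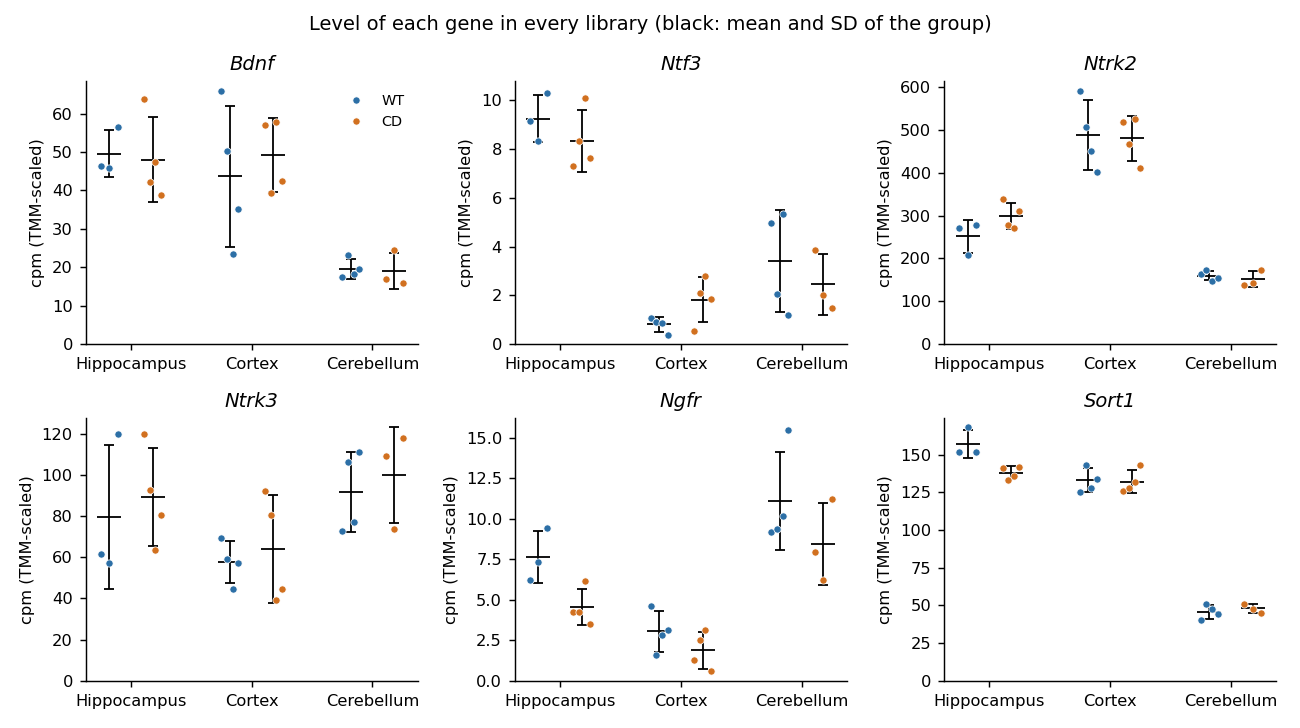
Level of each of the 6 genes in every library, in TMM-scaled cpm on linear axes that start at 0, by region and genotype (WT blue, CD orange), with the mean and SD of each group in black. Ntf3 is highest in hippocampus at 7.3 to 10.3 cpm, Ntrk2 in cortex at 402 to 591 cpm, and Bdnf and Sort1 are lowest in cerebellum at 15.9 to 24.4 and 40.4 to 51.2 cpm.

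Ntrk2, the TrkB gene, separated the 3 regions completely in its transcript with the most counts. This transcript has the full-length 3′ end. Its lowest, median and highest levels were 402, 486 and 591 cpm in the cortex and 207, 277 and 338 cpm in the hippocampus. In the cerebellum they were 139, 155 and 173 cpm. No library of one region reached the range of another. The means were 484 ± 63.6 (n = 8), 279 ± 40.3 (n = 7) and 156 ± 13.8 cpm (n = 7). The cortex had 1.77 times the hippocampal level (log2 fold change 0.82, SE 0.09, edgeR FDR = 7.52e-08), which stays under the fold threshold. The cerebellum had 0.569 times the hippocampal level (-0.81, SE 0.10, edgeR FDR = 4.91e-08), also under that threshold, and 0.322 times the cortical level (-1.64, SE 0.09, edgeR FDR = 7.64e-14). Each direction held in every mouse with both regions. With distinct transcripts summed, the log2 fold changes kept their direction but were smaller. They were 0.599 for cortex against hippocampus, -0.545 for cerebellum against hippocampus and -1.144 for cerebellum against cortex.

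The truncated form of Ntrk2 followed another order. It had 57.2, 71.4 and 87.4 cpm (lowest, median, highest) in the hippocampus, 47.8, 59.2 and 66.6 cpm in the cortex and 30.6, 40.7 and 54.0 cpm in the cerebellum. Hippocampus and cortex overlapped, and so did cortex and cerebellum. With the truncated transcript in place of the full-length one, the cortex was lower than the hippocampus instead of higher (log2 fold change -0.30, edgeR FDR = 0.0465, not past the threshold), in 6 of 7 mice, and the cerebellum was lower than the cortex by a smaller amount that stayed under the fold threshold (-0.47, edgeR FDR = 0.0015), also in 6 of 7 mice.

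As a share of truncated plus full-length counts, truncated Ntrk2 made up 9.31 to 11.7% in the 8 cortex libraries, of 1138 to 4253 counts each. In the 7 hippocampus libraries it made up 15.6, 20.5 and 25.6% (lowest, median, highest), and in the 7 cerebellum libraries 15.0, 20.1 and 26.3%. The cortex lay below both other regions without overlap, and hippocampus and cerebellum covered the same range. These shares cover the annotated truncated and full-length 3′ ends only and are not fractions of all Ntrk2 mRNA. Within mice, the cortical share was lower than the hippocampal one by a mean of 9.99 percentage points (SD 3.86, 7 of 7 mice, two-sided exact sign-flip permutation test, p = 0.0156, adjusted over 6 tests 0.0469). The cerebellar share exceeded the cortical one by 10.5 points (SD 4.33, 7 of 7 mice, exact permutation p = 0.0156, adjusted 0.0469). With 7 mice, 0.0156 is the smallest p this test can give. The cerebellar and hippocampal shares differed by 1.64 points (SD 4.21, 6 mice, exact permutation p = 0.5, adjusted 0.5). The 6 astrocyte markers, all present, summed to 2230 to 2670 cpm in hippocampus, 1810 to 2100 cpm in cortex and 1160 to 1590 cpm in cerebellum, but single markers differed in order. Slc1a2 had medians of 1210, 1400 and 357 cpm and Gfap of 601, 172 and 156 cpm in hippocampus, cortex and cerebellum, whereas Slc1a3 (420, 331 and 693 cpm) and Aqp4 (81.9, 52.0 and 178 cpm) were highest in cerebellum. Their part in the result was not tested.

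A predicted Ntrk2 transcript model that was not matched to GENCODE behaved differently again. It had 30.1 to 52.3 cpm in the hippocampus, 28.1 to 60.4 cpm in the cortex and 53.5 to 86.7 cpm in the cerebellum, and was higher in the cerebellum than in the hippocampus in 6 of 6 mice and than in the cortex in 7 of 7 mice. Over all libraries it held 6726 counts, against 7656 for the truncated transcript, and where its reads belong between the 2 forms is not known here. With its counts added to the full-length ones, the cortical share of truncated Ntrk2 stayed below that of the other regions. The difference between cerebellum and hippocampus then turned to -1.56 points (exact permutation test, adjusted p = 0.312). Shares with its counts added to the truncated form were not computed.

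**Figure D2:**
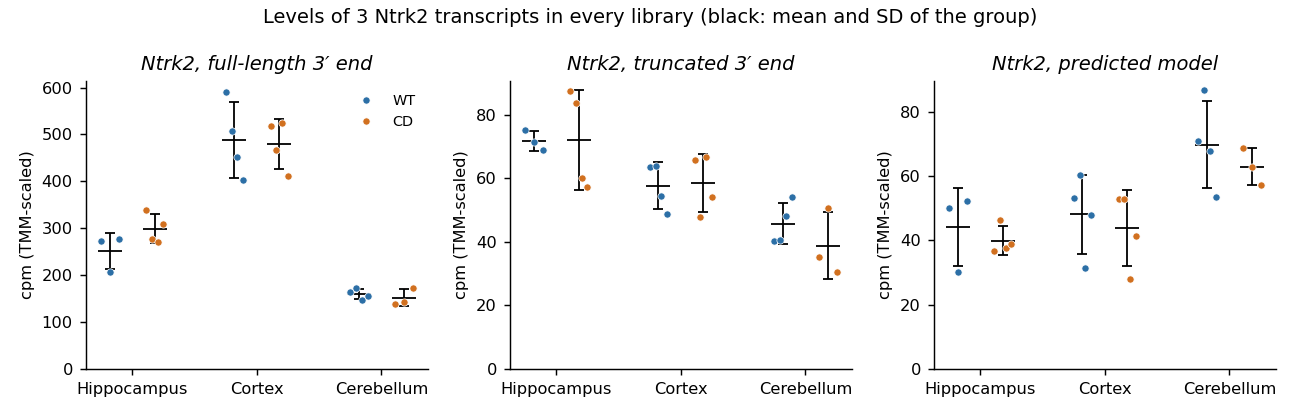
Levels of 3 Ntrk2 transcripts in every library, in TMM-scaled cpm on linear axes that start at 0 and differ between panels, by region and genotype (WT blue, CD orange), with the mean and SD of each group in black. The full-length transcript is highest in cortex, the truncated one has its highest mean in hippocampus (72.0 cpm), and the predicted model is highest in cerebellum (mean 66.8 cpm).

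Ntrk3, the TrkC gene, varied between mice as well as between regions. Its lowest, median and highest levels were 57.2, 80.7 and 120 cpm in the hippocampus and 39.4, 58.2 and 92.0 cpm in the cortex. In the cerebellum the lowest level was 72.9 cpm, the median 106 cpm and the highest, that of mouse m242, just under that of the hippocampus, and all 3 ranges overlapped. Mouse m118 gave 120, 92.0 and 109 cpm in hippocampus, cortex and cerebellum. Mouse m240 gave 57.2, 44.7 and 77.3 cpm, and mouse m190 gave 63.6, 39.4 and 73.8 cpm. The cerebellum was 1.58 times the cortex (log2 fold change 0.66, SE 0.19, edgeR FDR = 0.00432), under the fold threshold, and higher in 7 of 7 mice. Cortex and hippocampus differed by -0.46 (SE 0.19, edgeR FDR = 0.0622), and cerebellum and hippocampus by 0.20 (SE 0.20, edgeR FDR = 0.4). With the mouse as a block the SE of the difference between cortex and hippocampus fell to 0.13 and its FDR in edgeR to 0.00532, at a log2 fold change of -0.47. In that fit 4 of the 6 genes then passed the FDR alone between hippocampus and cortex, beside 2830 of the 11133 genes tested. Between hippocampus and cerebellum 5 passed it, beside 5496 of all genes, the added one being Ngfr (0.80, edgeR FDR = 0.00688). Between cortex and cerebellum 5 passed it, beside 5710 of all genes, and Ntf3 dropped out.

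Truncated Ntrk3 varied little in level, with means of 45.6 ± 6.28 cpm in hippocampus (n = 7), 45.4 ± 7.55 cpm in cortex (n = 8) and 47.3 ± 9.0 cpm in cerebellum (n = 7). Full-length Ntrk3 had means of 78.5 ± 25.9, 55.1 ± 16.9 and 87.2 ± 21.7 cpm. The truncated share was 30.3 to 46.5% in hippocampus, 36.9 to 54.8% in cortex and 27.1 to 44.5% in cerebellum, with overlap between all regions. Within mice, it was 8.3 points higher in cortex than in hippocampus (SD 9.75, 6 of 7 mice, exact permutation p = 0.0781, adjusted 0.117) and 11.4 points lower in cerebellum than in cortex (SD 10.5, 6 of 7 mice, exact permutation p = 0.0469, adjusted 0.0938). Neither passed after adjustment. Mouse m162 was the exception in both, with 46.5, 36.9 and 42.9% in hippocampus, cortex and cerebellum. Without it the differences were 11.3 points and -14.2 points (exact permutation test, adjusted p = 0.0469 each). Leaving out the only mouse of opposite direction sets the unadjusted p at the smallest this test can give. Nothing is therefore concluded from these p-values.

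**Figure D3:**
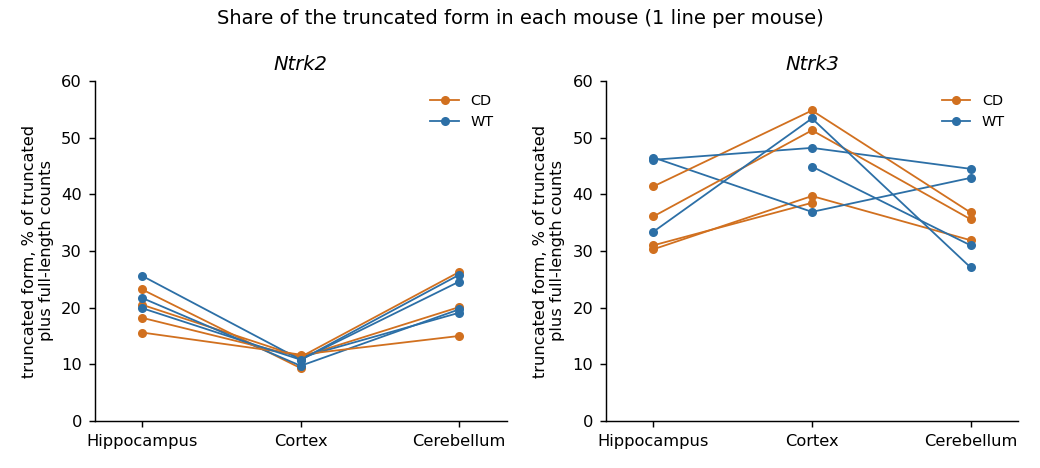
Truncated form as a percentage of truncated plus full-length counts for Ntrk2 (left) and Ntrk3 (right), with 1 line per mouse across hippocampus, cortex and cerebellum (WT blue, CD orange; a line with 2 points is a mouse without a library of the third region). For Ntrk2 every line dips in the cortex, to between 9.31 and 11.7%, whereas the Ntrk3 lines overlap in all regions.

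Ngfr, which encodes the low-affinity pan-neurotrophin receptor, was low in all regions and ran opposite to Bdnf between cortex and cerebellum. Its lowest, median and highest levels were 6.24, 9.38 and 15.5 cpm in the cerebellum (34 to 92 counts), 3.53, 6.17 and 9.41 cpm in the hippocampus (17 to 62 counts) and 0.622, 2.68 and 4.62 cpm in the cortex (5 to 30 counts). Cerebellum and cortex did not overlap, and the hippocampus overlapped with both. The cerebellum had 4.01 times the cortical level (log2 fold change 2.00, SE 0.25, edgeR FDR = 1.84e-07), higher in 7 of 7 mice. The cortex had 0.41 times the hippocampal level (-1.29, SE 0.26, edgeR FDR = 0.000317), lower in 7 of 7 mice. The cerebellum exceeded the hippocampus in 6 of 6 mice (0.72, SE 0.23, edgeR FDR = 0.0102), just short of the threshold. Basal forebrain cholinergic neurons are known for their high Ngfr. Of their 5 markers 3 were in the table, and these were near the detection limit throughout. They summed to 0 to 0.338 cpm in cerebellum, 0 to 0.579 cpm in hippocampus and 0.434 to 2.77 cpm in cortex. Chat and Slc18a3 were at 0 in every cerebellum library. The part of these neurons in the Ngfr levels was not tested.

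Sort1, which encodes sortilin, a sorting receptor for precursors of neurotrophins, was the least variable of the 6 genes within a region. Its lowest, median and highest levels were 133, 142 and 168 cpm in the hippocampus, 125, 130 and 143 cpm in the cortex and 40.4, 47.4 and 51.2 cpm in the cerebellum. Both forebrain regions overlapped, and the cerebellum lay far below them. The cerebellar level was 0.318 times that of the hippocampus (log2 fold change -1.65, SE 0.07, edgeR FDR = 1.2e-16) and 0.354 times that of the cortex (-1.50, SE 0.07, edgeR FDR = 5.26e-16). All mice with both regions showed this direction. Cortex and hippocampus differed by -0.16 (SE 0.06, edgeR FDR = 0.0575). The 5 microglia markers, all present, moved the same way, with sums of 183 to 219 cpm in hippocampus, 157 to 212 cpm in cortex and 49.1 to 71.9 cpm in cerebellum, and their part in the result was not tested.

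For each gene, the 3 genes with the most similar profile were taken as those with the smallest root mean square difference of centered log2 cpm over the 22 libraries, among 11133 genes. For Bdnf these were Nefl (0.242), Rnase4 (0.261) and Mical2 (0.272), where the median over all genes was 0.768. Ntrk2 was closest to Gucy1b1 (0.204), Efhd2 and Rgs17 (0.217 each), and Ntrk3 to Hipk2 (0.247), Elavl3 (0.259) and Ccnl1 (0.272). Sort1 had the closest profiles of all, with Grik5 (0.15), Abr (0.155) and Csf1r (0.165), against a median of 0.83. Ntf3 and Ngfr, with the fewest counts, had no close neighbor, the nearest being Sipa1l3 (0.486) and Peak1 (0.484). The libraries share mice and depth, and these values are a description.

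The genes around the 6 were compared through lists of the pathway. Some genes named below passed the filter only through regions where their levels are higher. Within single regions, Sorcs1 and Shc3 passed it in cortex only, and Sorcs2, Shc2 and Npas4 in hippocampus and cortex only. Fos passed it in cortex and cerebellum only. Their region calls, which are also counted below, are a description. Among the other receptors and co-receptors 6 of 8 were tested, and 4 were lower in cerebellum than in cortex, where 22.6% of all genes were called in either direction. Lingo1, a co-receptor of the Ngfr product, had a median of 358 cpm in cortex, 178 cpm in hippocampus and 34.4 cpm in cerebellum, with log2 fold changes of -3.43 (SE 0.10, edgeR FDR = 1.34e-19) from cortex to cerebellum and -2.46 (SE 0.10, edgeR FDR = 7.13e-17) from hippocampus to cerebellum. Of the sortilin relatives, Sorcs1 was higher in cortex than in hippocampus (1.38, SE 0.41, edgeR FDR = 0.00938) and lower in cerebellum than in cortex (-2.60, SE 0.46, edgeR FDR = 2.62e-05). Sorcs2 was lower in cerebellum than in hippocampus (-2.65, SE 0.28, edgeR FDR = 9.3e-09). Thus 1 gene of this list was higher in cortex than in hippocampus and none lower, and 2 were lower in cerebellum than in hippocampus and none higher, where 8.42% and 22.8% of all genes were called.

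Of the genes that process and release precursors 9 of 15 were tested, and they moved in both directions. Pcsk6, a proprotein convertase, had a median of 721 cpm in cerebellum, 148 cpm in hippocampus and 82.7 cpm in cortex, with log2 fold changes of 2.26 (SE 0.11, edgeR FDR = 5.06e-15) against the hippocampus and 3.06 (SE 0.11, edgeR FDR = 7.31e-18) against the cortex. Other convertases were lower in cerebellum, namely Pcsk5 against the hippocampus (-2.25, SE 0.21, edgeR FDR = 7.24e-10) and Pcsk2 against the cortex (-1.69, SE 0.08, edgeR FDR = 1.08e-15). Between hippocampus and cortex, Pcsk1 was higher (1.45, SE 0.22, edgeR FDR = 8.68e-06) and Hap1, which takes part in BDNF transport, was lower in cortex (-1.12, SE 0.14, edgeR FDR = 4.27e-07). In all, 1 gene was higher and 1 lower in cortex than in hippocampus, 2 were higher and 3 lower in cerebellum than in hippocampus, and 2 were higher and 2 lower in cerebellum than in cortex. Of all genes 8.42%, 22.8% and 22.6% were called in these pairs.

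Of 29 Trk adaptors and signalling genes, which carry the signal inside the cell, 26 were tested. None was called between hippocampus and cortex (8.42% of all genes), 4 were lower in cerebellum than in hippocampus (22.8% of all genes called), and 2 were higher and 3 lower in cerebellum than in cortex (22.6%). Among those lower in cerebellum were the adaptor gene Shc3, against the hippocampus and the cortex (-1.60, SE 0.34, edgeR FDR = 0.000221, and -2.22, SE 0.32, edgeR FDR = 1.52e-06) and its relative Shc2 against the cortex (-1.45, SE 0.20, edgeR FDR = 6.32e-07). Of the 8 adaptors of the Ngfr receptor 6 were tested and none was called in any pair of regions. Of 10 Trk trafficking genes 8 were tested. Slitrk5, a transmembrane protein that takes part in TrkB recycling, was lower in cerebellum than in hippocampus (-1.97, SE 0.11, edgeR FDR = 1.71e-14) and cortex (-1.74, SE 0.10, edgeR FDR = 1.15e-13), and Gipc1, which links Trk receptors to a motor protein, was lower than in cortex (-1.13, SE 0.08, edgeR FDR = 1.11e-11).

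Some genes upstream and downstream of Bdnf were called in each pair of regions. Of 9 regulators of Bdnf transcription 7 were tested. Mef2c had a median of 835 cpm in cortex, 124 cpm in hippocampus and 49.8 cpm in cerebellum, and was higher in cortex than in hippocampus (2.75, SE 0.09, edgeR FDR = 9.57e-18), as was Npas4, an activity-dependent transcription factor (1.87, SE 0.25, edgeR FDR = 1.06e-06). Against the cortex, both were lower in cerebellum (-4.04, SE 0.09, edgeR FDR = 1.28e-21 for Mef2c, and -2.58, SE 0.26, edgeR FDR = 4.96e-09 for Npas4). Arnt2, a partner of Npas4, was lower in cerebellum than in hippocampus (-1.62, SE 0.09, edgeR FDR = 1.16e-13), as was Mef2c (-1.28, SE 0.09, edgeR FDR = 1.78e-12). Of this list 2 genes were called higher in cortex than in hippocampus, 2 lower in cerebellum than in hippocampus and 3 lower in cerebellum than in cortex, with none in the other direction, beside 8.42%, 22.8% and 22.6% of all genes called in either direction.

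Of 8 genes known to be induced by BDNF 7 were tested. In cortex, 4 were higher than in hippocampus and none lower (8.42% of all genes called), with a list median of 1.22 against -0.01 over all genes. Egr1 had medians of 28.7 and 120 cpm in hippocampus and cortex (2.11, SE 0.17, edgeR FDR = 3.41e-10), and Fos 3.46 and 12.6 cpm (2.02, SE 0.19, edgeR FDR = 3.73e-09). In cerebellum, 5 were lower than in hippocampus (22.8% of all genes called), with a list median of -1.30 against 0.02 over all genes, and all 7 were lower than in cortex (22.6%), with a median of -2.52 against 0.02. Fos went the other way against the hippocampus, with a median of 5.44 cpm in cerebellum, and was higher at the FDR alone but under the fold threshold. Arc fell from a median of 296 cpm in cortex and 82.6 cpm in hippocampus to 16.5 cpm in cerebellum (-4.14, SE 0.19, edgeR FDR = 5.26e-16, and -2.36, SE 0.18, edgeR FDR = 2.48e-11). Vgf, the gene of a secreted neuropeptide precursor, had 430, 236 and 34.6 cpm (-3.52, SE 0.17, edgeR FDR = 3.23e-15, and -2.72, SE 0.17, edgeR FDR = 4.66e-13). These genes also respond to neuronal activity and other factors.

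**Figure D4:**
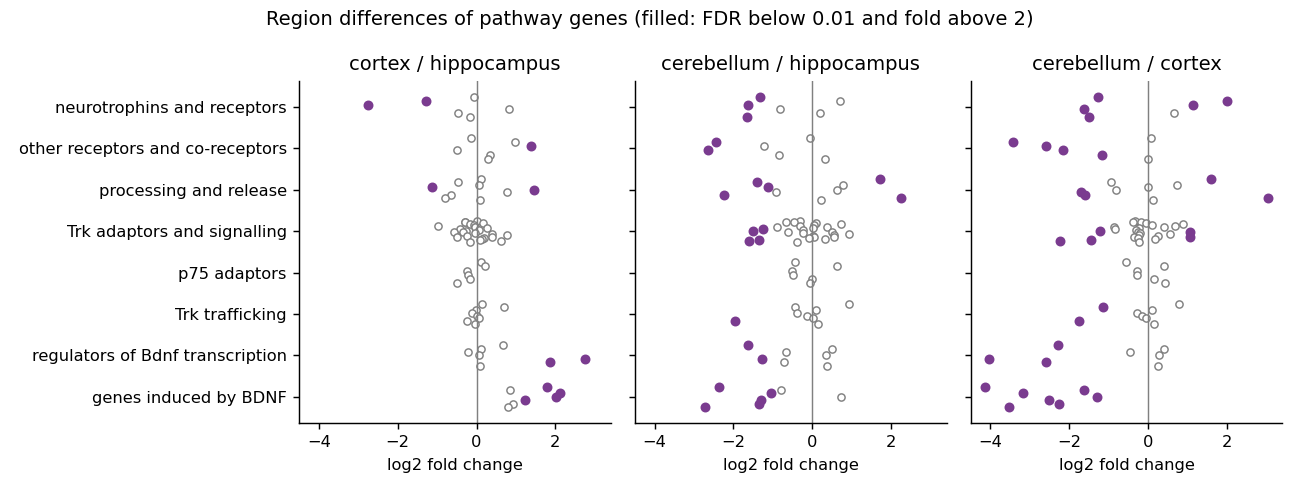
Log2 fold changes (x axis) of the tested genes of each pathway list (rows, 1 circle per gene) for cortex over hippocampus, cerebellum over hippocampus and cerebellum over cortex. Filled circles passed an FDR below 0.01 and a fold above 2. The genes induced by BDNF lie to the right in the first panel (4 of 7 filled) and to the left in the last (7 of 7 filled).

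Between genotypes, none of the 6 genes was called. The comparison asks whether reduced circTulp4 comes with altered expression in these regions, and 0% of the genes tested were called in the hippocampus (9960 tested), the cortex (9924), the cerebellum (10138) or over the 3 regions (11133). At an unadjusted p under 0.05, edgeR gave 420, 329 and 461 genes in the hippocampus, cortex and cerebellum, and limma 398 over the 3 regions. DESeq2 called 2, 1 and 0 genes in the 3 regions, none of them among the 6. The genotype by region interaction was called for 0% of genes at an FDR below 0.05, and for the 6 genes it was 0.999 each in edgeR. The WT and CD libraries did not overlap for 2 of the 6 genes in the hippocampus (5.41% of all genes tested, and again 2 of 6, beside 9.16%, without the library of mouse m118), for 0 in the cortex (2.54%) and for 0 in the cerebellum (5.35%).

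Ngfr had the largest of these differences in the hippocampus, at a size that did not pass the correction. It had 6.23, 7.37 and 9.41 cpm in the WT libraries (36, 62 and 55 counts) and 3.53, 4.28, 4.28 and 6.17 cpm in the libraries labelled CD (25, 17, 37 and 42 counts). All 4 lay below the lowest WT library, by as little as 6.17 against 6.23 cpm. The means were 7.67 ± 1.61 (SD, n = 3) and 4.57 ± 1.13 cpm (n = 4), and the log2 fold change was -0.74 (95% interval -1.31 to -0.17, edgeR FDR = 0.998). Without the library labelled CD of mouse m118 it was -0.71 (95% interval -1.34 to -0.09, edgeR FDR = 0.998). In the cerebellum Ngfr had 9.22 to 15.5 cpm in 4 WT and 6.24 to 11.2 cpm in 3 CD libraries, with overlap (-0.36, 95% interval -0.91 to 0.18, edgeR FDR = 0.981). In the cortex it had 1.6 to 4.62 cpm in WT and 0.622 to 3.14 cpm in CD libraries, with overlap, and was below the filter. In the limma fit of the regions together, in which the mouse was a random effect, it was -0.68 (95% interval -1.14 to -0.22, limma FDR = 1).

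The summed levels of the marker lists did not separate the hippocampal genotypes. The 4 Schwann cell markers, of which Pmp22 and Sox10 are also expressed by other glia, summed to 933 to 1220 cpm in WT and 733 to 1160 cpm in CD hippocampus, with Prx at 0 in the CD libraries. The 3 cholinergic markers summed to 0.238 to 0.346 and 0 to 0.579 cpm, with Chat at 0 in the CD libraries, and the 9 endothelial, mural and meningeal markers to 76.8 to 98.3 and 90.7 to 105 cpm. Without the library of mouse m118 the CD sums were 733 to 1020, 0.141 to 0.579 and 91.5 to 105 cpm, also overlapping with WT. The median log2 fold change was -0.38 over the 7 tested endothelial, mural and meningeal markers and -0.31 over the 2 tested Schwann cell markers. Without the library of mouse m118 these medians were -0.28 and -0.34. The summed level of the endothelial, mural and meningeal markers went the other way, with a median of 77.4 cpm in the WT and 95.8 cpm in the CD libraries. None of these markers was called, and no cholinergic marker passed the filter. The part of these markers in the Ngfr values was not tested.

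Sort1 was the other gene without overlap in the hippocampus. It had 152, 152 and 168 cpm in the WT libraries and 133, 136, 141 and 142 cpm in those labelled CD. The difference was small, with a log2 fold change of -0.19 (95% interval -0.39 to 0.01, edgeR FDR = 0.998), and -0.19 without the library labelled CD of mouse m118. In the cortex (125 to 143 cpm in WT, 126 to 143 cpm in CD) and in the cerebellum (40.4 to 51.1 and 45.2 to 51.2 cpm) the genotypes overlapped, with log2 fold changes of -0.01 and 0.08.

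Bdnf overlapped between genotypes in each region. In the hippocampus it had 45.9, 46.4 and 56.6 cpm in the WT libraries and 38.9, 42.3, 47.3 and 63.7 cpm in those labelled CD, the highest being that of mouse m118. Its log2 fold change was -0.06 (95% interval -0.42 to 0.31) there, and -0.21 (-0.50 to 0.09) without mouse m118. In the cortex it was 0.14 (-0.38 to 0.66), in the cerebellum -0.05 (-0.43 to 0.34) and over the 3 regions 0.01 (-0.29 to 0.31). Each of these intervals lies within a 2-fold change in either direction.

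Ntf3 had 8.32 to 10.3 cpm in WT and 7.3 to 10.1 cpm in CD hippocampus, with a log2 fold change of -0.13 (95% interval -0.56 to 0.29) and of -0.08 without mouse m118. In the cerebellum the interval ran from -1.64 to 0.59 around -0.52, which at 7 to 33 counts per library includes a 2-fold lower level. In the cortex, Ntf3 was below the filter, with 0.396 to 1.08 cpm in WT and 0.562 to 2.79 cpm in CD libraries.

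Ntrk2 and Ntrk3 overlapped between genotypes in each region. Ntrk2 had 207 to 277 cpm in WT and 270 to 338 cpm in CD hippocampus, with a log2 fold change of 0.25 (95% interval -0.03 to 0.53, edgeR FDR = 0.998), and 0.19 without mouse m118. In the cortex it was -0.03 (-0.31 to 0.25), in the cerebellum -0.07 (-0.30 to 0.16) and over the 3 regions 0.05 (-0.11 to 0.21). For Ntrk3 the log2 fold changes were 0.17 (-0.40 to 0.74) in the hippocampus, where the value was 0.00 without mouse m118, 0.14 (-0.36 to 0.65) in the cortex, 0.14 (-0.25 to 0.53) in the cerebellum and 0.13 (-0.19 to 0.46) over the 3 regions. The truncated shares differed most between genotypes for Ntrk3 in the hippocampus, by -7.28 points (CD minus WT), at 42.0 ± 7.47% in WT (n = 3) and 34.7 ± 5.19% in CD (n = 4). That was not past the threshold (two-sided exact permutation test, p = 0.2, adjusted over 6 tests 0.771), and the design could not give a p below 0.0286. Without the library of mouse m118 the difference was -5.8 points (exact permutation test, adjusted p = 0.9), and that of the Ntrk2 share, -3.02 points with it, was -3.41 points (adjusted exact permutation p = 0.9). For Ntrk2 the shares were 22.4 and 19.4% in WT and CD hippocampus, 10.6 and 10.9% in cortex, and 22.3 and 20.5% in cerebellum, with adjusted exact permutation p from 0.771 to 0.96.

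**Figure D5:**
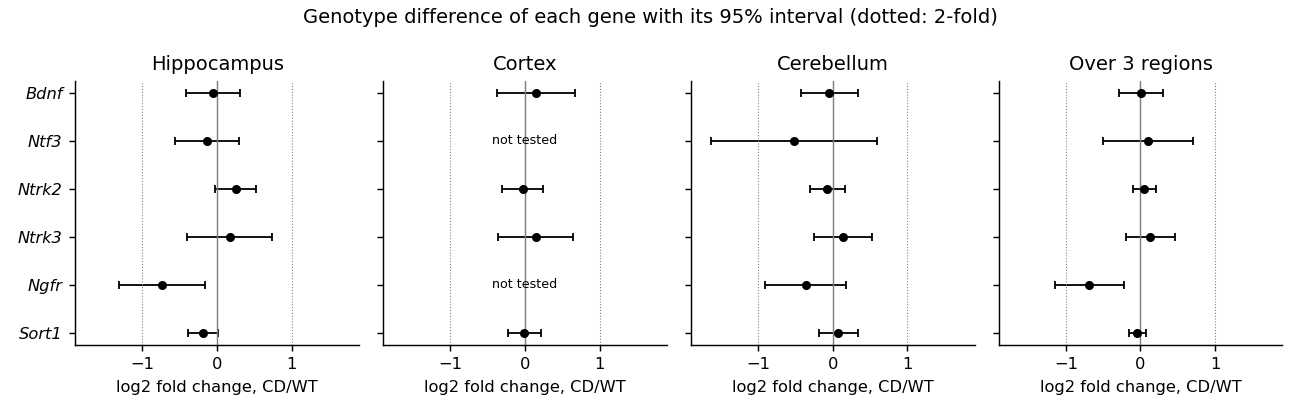
Log2 fold change of CD over WT (x axis, points) with its 95% interval (bars) for the 6 genes in each region (edgeR) and over the 3 regions (limma), with Ntf3 and Ngfr marked as not tested in cortex. Dotted lines mark a 2-fold change. Ngfr lies furthest from 0 in the hippocampus, at -0.74, and Ntf3 in the cerebellum has the widest interval, from -1.64 to 0.59.

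None of the genes of the pathway lists was called between genotypes in any region or over the 3 regions, again with 0% of all genes called. List medians of the log2 fold change lay between -0.13 and 0.17 in the single regions, beside medians of -0.01, -0.01 and 0.00 over all genes tested. Among the genes known to be induced by BDNF, the median was 0.09 in the hippocampus (6 tested), 0.04 in the cortex (7) and -0.02 in the cerebellum (7). Without the library of mouse m118, the hippocampal list medians lay between -0.03 and 0.20, and that of the genes induced by BDNF was 0.13.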

How the data were processed

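RNA of hippocampus, cortex and cerebellum was sequenced in 22 CelSeq2 3′ libraries. Reads were aligned to mm10 by STAR, and the counts deposited by the authors are raw End Sequence Analysis Toolkit counts per RefSeq transcript, without normalization. Versions, the RefSeq release and whether molecular identifiers were collapsed are not given in the sources used here, so counting limits cover counting error only. If reads were not collapsed, amplification adds to the spread.

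Of 85964 transcripts 69280 (80.6%) were matched by accession without version to RefSeq symbols of GRCm38, giving 23033 genes, and for every gene the transcript with the most counts over all libraries stood for it. Genotype, region and mouse came from the sample labels. Pairs of libraries of a group differed by 5.68 to 17.49 times what counting error gives (chi-square over its degrees of freedom), so none repeated another.

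Genes that reached 5 cpm in 2 or more libraries (of all 22, or of the region for genotypes) were scaled by TMM and tested with edgeR 4.0.16 (quasi-likelihood) in R 4.3.3, with limma 3.58.1 (voom, mouse as random block) over the 3 regions. The biological coefficient of variation was 15.7, 16 and 14% in hippocampus, cortex and cerebellum. Log2 cpm used a prior count of 2. Regions share mice. The deviations of libraries of the same mouse correlated with a mean r of 0.083, 0.047 and -0.004 in the 3 region pairs, and a fit with the mouse as a block was the alternative. DESeq2 1.42.0, no filter, summed transcripts and each library or mouse left out were the others. The scripts were tested on simulated data. Shares were tested by exact permutation, adjusted by Benjamini-Hochberg over 6 tests each.

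The 6 genes, the pathway and marker lists and the naming rule (in each list, the 2 called genes with the largest change per region pair) were chosen with earlier results of these data known. Some genes are not reported here. Junction sequences came from GENCODE transcripts. Protein sequences were not used here.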

Additional observations from a re-analysis of the deposited data

Results flagged for a closer look

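Ngfr in WT cerebellum stood out in 1 library. Mouse m244 had 15.5 cpm, while the other 3 libraries of this group lay between 9.22 and 10.2 cpm, a gap of 0.849 of the whole range, above Dixon's 95% critical value for 4 samples. Of the 32 groups of 4 samples examined, this was the only one to exceed it, where chance gives 1.6. The same mouse also had the highest Ngfr level of the WT hippocampi, 9.41 cpm, and 3.17 cpm in the cortex, where mouse m162 was higher at 4.62 cpm.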

How the results depend on the processing

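Of 725 values recomputed under the alternatives, 667 kept their direction and their side of the threshold, 17 became weaker, 2 stronger and 39 changed sign; the cause was not tested where none is named. Counts of called genes among the 6 stayed the same or, between cortex and cerebellum, ranged from 4 to 5 when a mouse was left out and fell to 4 with the truncated transcripts, where Ntrk2 (-0.47) stayed under the fold threshold. With the replicate block, the call lost was that of Ntf3 between cortex and cerebellum (1.08); the number of called genes among the 6 stayed at 2 and 3 in the other region pairs. Over the 3 regions the fit with no replicate block called 0 of the 6, as did the fit with it. No paired analysis was possible between genotypes within a region because they share no mice. Over all genes, fits with no filter called 1471, 3768 and 3670 between regions, and 6, 3 and 10 between genotypes in hippocampus, cortex and cerebellum, where DESeq2 called 2, 1 and 0.

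With the truncated transcripts, the log2 fold change of Ntrk2 turned to -0.30 between hippocampus and cortex, to 0.01 between genotypes in cortex and to -0.10 over the 3 regions, and that of Ntrk3 to -0.24 in hippocampus and -0.02 over the 3 regions. With no filter, Sort1 turned to 0.01 in cortex. With the predicted model added to the full-length counts, the Ntrk2 share difference between cerebellum and hippocampus turned to -1.56 points. With a predicted model in place of the full-length transcript, the Ntrk3 share difference between genotypes in cortex turned to -0.0234 points.

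Leaving out 1 mouse or library, Bdnf ranged from -0.22 to 0.03 between hippocampus and cortex, and between genotypes from -0.21 to 0.05 in hippocampus, -0.07 to 0.43 in cortex, -0.26 to 0.08 in cerebellum and -0.12 to 0.10 over the regions. Between genotypes, Ntrk2 ranged from -0.11 to 0.08 in cortex and -0.02 to 0.11 over the regions, Ntrk3 from -0.03 to 0.58 in hippocampus, -0.08 to 0.31 in cortex and 0.00 to 0.32 over the regions, Ntf3 from -0.06 to 0.24 over the regions and Sort1 from -0.05 to 0.03 in cortex. Genotype differences of the Ntrk2 share ranged from -4.75 to 0.905 points in cerebellum and -0.0614 to 0.759 in cortex, and of the Ntrk3 share from -4.7 to 1.1 and -2.78 to 2.73. The Ntrk2 share differences between cortex and hippocampus (-11.0 to -9.18) and cerebellum and cortex (9.8 to 11.8) kept their sign. With 6 pairs left their adjusted p rose to 0.0938, except without m162, where it was 0.0469 (-9.66 and 10.6 points). Those of Ntrk3 ranged from 6.34 to 11.3 and -14.2 to -8.86. They passed only without m162 (11.3 and -14.2 points, adjusted exact permutation p = 0.0469 each). As m162 was the only mouse of opposite direction in both, nothing is concluded from that.

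Depth limits Ntf3 and Ngfr, for which 5 cpm is 13.8 to 44.2 counts in a library.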

Other observations

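The Ntrk3 levels of further mice did not follow a single order. Mouse m138, with no cerebellum library, had 92.4 cpm in hippocampus and 80.3 cpm in cortex, mouse m162 had 61.4, 69.3 and 72.9 cpm in hippocampus, cortex and cerebellum, mouse m244 had 120, 57.1 and 111 cpm, and mouse m242 had 80.7 and 44.5 cpm in hippocampus and cortex with the highest cerebellar level. No pattern across mice was tested.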
